A study of Mus musculus with 13 samples.

Results

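Fulvestrant without added estradiol (E2) was compared with vehicle by ESR1 ChIP-Seq in primary skeletal muscle fibroblasts, grown from the LAM (lower abdominal muscle) of mice with the genotype Aromhum. That genotype, shared by all groups, adds the human gene of aromatase, the enzyme that makes estrogens from androgens. The comparison used the 3 libraries labelled fulvestrant and the 3 labelled vehicle, which were 6 of the 12 ESR1 libraries among the 13 samples of the series. Adherent cells were selected by preplating, passaged once and starved of serum and phenol red overnight. They were then pretreated with 100 nM fulvestrant or with DMSO for 3 hours, given ethanol as the solvent of E2, and harvested 1 hour after that. The vehicle cultures thus received DMSO and ethanol. The other libraries received 10 nM E2, or 10 nM E2 after 100 nM fulvestrant, and their values appear below only beside regions of the comparison. Per the study's methods the mice were male. Their age when the cells were taken, and whether the replicates were separate cultures or animals, were not given in the sources used here, so p-values measure the spread between these libraries, which may be technical.

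ESR1, estrogen receptor alpha, is a nuclear receptor that binds DNA as a dimer, most directly at the estrogen response element (ERE), a palindrome of GGTCA and TGACC with any 3 bases between them. Estradiol-bound ESR1 recruits coactivators there, and it also reaches chromatin through other factors such as AP-1, the FOS and JUN dimer that binds TGANTCA. Fulvestrant occupies the ligand pocket, blocks coactivator binding and leads to receptor degradation. The question was whether the antagonist, with no E2 added, moved, added or removed ESR1 peaks. The peak lists gave positions, summits and, within each list, an order by the q-value of each peak. Rank 1 was the best peak of a library, and a list percentile was the rank as a percent of the list length, so that a small percentile stands for a strong peak.

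The bases around the EREs of some of the regions described below were read from GRCm38 (mm10), plus strand, with the ERE in capitals. The first 5 belonged to the regions with a perfect ERE that ranked best over the 6 libraries. They are shown as the best-ranked of that class, not of all ESR1 peaks. They lay at chr6:100060031-100060103 near Gm33201, chr16:25220716-25220788 near Tprg, chr8:25211931-25212003 in an intron of Tacc1, chr5:118812981-118813053 near Gm43782 and chr4:122891490-122891562 near Cap1.
Gm33201: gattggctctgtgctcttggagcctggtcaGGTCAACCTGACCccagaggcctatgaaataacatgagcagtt
Tprg: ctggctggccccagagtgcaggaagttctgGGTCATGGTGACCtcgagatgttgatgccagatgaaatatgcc
Tacc1: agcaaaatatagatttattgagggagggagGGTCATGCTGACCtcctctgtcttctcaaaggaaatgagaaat
Gm43782: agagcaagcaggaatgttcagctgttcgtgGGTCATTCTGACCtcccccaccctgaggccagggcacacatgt
Cap1: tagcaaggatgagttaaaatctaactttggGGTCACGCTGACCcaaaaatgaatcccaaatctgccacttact

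A second set is shown because its regions stood in a different order in the fulvestrant and vehicle lists, or served the study as a control locus. The ERE of Greb1, a classic estrogen target, lay in an intron at chr12:16760501-16760573. The EREs near Trim52 at chr14:106155589-106155661 and near Gm7214 at chr13:43510424-43510496 ranked worse in every fulvestrant library. The EREs in introns of Stat5a at chr11:100870769-100870841 and Sybu at chr15:44699314-44699386, and the one near Gm47812 at chr13:71649195-71649267, ranked better in fulvestrant replicates 1 and 3. Those of Trim52, Sybu and Gm47812 differ from the palindrome at 1 base, and the others match it.
Greb1: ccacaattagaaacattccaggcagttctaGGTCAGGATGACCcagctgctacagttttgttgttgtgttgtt
Trim52: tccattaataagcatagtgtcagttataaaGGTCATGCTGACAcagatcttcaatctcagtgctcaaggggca
Gm7214: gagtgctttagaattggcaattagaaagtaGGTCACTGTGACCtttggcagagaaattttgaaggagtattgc
Stat5a: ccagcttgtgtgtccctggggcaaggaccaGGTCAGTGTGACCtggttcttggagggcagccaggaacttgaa
Sybu: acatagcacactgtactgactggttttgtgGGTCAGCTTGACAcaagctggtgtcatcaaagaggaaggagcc
Gm47812: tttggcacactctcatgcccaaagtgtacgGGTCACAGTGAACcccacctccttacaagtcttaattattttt

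Fulvestrant replicate 2 stood apart from the other 5 libraries. Over 50% of the bases within 100 bp of the summit were repeat-masked in 27.9% of its peaks (95% Wilson interval 27.6% to 28.2%, counting error only), compared with 6.51% to 7.79% in the other 5. Its depth, estimated from the local background of its peaks, was 75.8% of that of the median library of the series, compared with 96.3% to 106% in the other 5. The median number of fragments at its summits was 14, compared with 19 to 23, and it had 206 peaks on the Y chromosome, compared with 20 to 43. The main results are therefore given with and without it. Among the libraries set beside the comparison, E2 replicate 1 had a depth of 39.1% and a repeat-masked share of 59.4%, so the E2 group is read from replicates 2 and 3. The promoters of 7 of 9 fibroblast marker genes carried a peak in all 6 libraries, and those of 5 of 7 muscle cell markers carried none in any of the 6. A peak at a promoter is not a measure of expression.

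Fulvestrant alone did not change the size or the composition of the ESR1 peak lists beyond the spread between libraries. Vehicle replicates 1 to 3 had 51239, 34293 and 39763 peaks, and fulvestrant replicates 1 to 3 had 42541, 80754 and 45755. The vehicle mean was 41765 ± 8649 (SD, n = 3) and the fulvestrant mean 56350 ± 21196 (SD, n = 3), a ratio of 1.35 (two-sided exact permutation test, p = 0.4). The mean of fulvestrant replicates 1 and 3 was 44148 ± 2273 (SD, n = 2), a ratio of 1.06 (exact p = 0.8). Both lay within the range of the vehicle libraries. With 3 libraries against 3, and also with 2 against 3, this test cannot give a p below 0.1.

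Peaks with a −log10 q of at least 10 numbered 7003, 3981 and 3076 with vehicle and 7504, 11019 and 5975 with fulvestrant. The difference of 3479 (exact permutation p = 0.2), or 2053 without fulvestrant replicate 2 (exact p = 0.3), was the clearest in direction of the library measures, but vehicle replicate 1 exceeded fulvestrant replicate 3. Peaks covered 31.8, 18.0 and 19.9 Mb with vehicle and 25.7, 42.4 and 27.5 Mb with fulvestrant (exact permutation p = 0.3, and 0.5 without fulvestrant replicate 2). The share of summits within 3 kb of a transcription start site was 39.4%, 45.9% and 40.6% with vehicle and 43.0%, 33.2% and 40.7% with fulvestrant (exact permutation p = 0.6, and 1 without fulvestrant replicate 2). In all 3 measures the groups overlapped.

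The motif content of the lists also overlapped between treatments. An ERE with at most 1 mismatch lay within 100 bp of the summit in 1.72%, 1.86% and 1.90% of vehicle peaks and in 1.77%, 0.949% and 1.72% of fulvestrant peaks (exact permutation p = 0.3, and 0.4 without fulvestrant replicate 2). The same windows placed 2 kb upstream held one in 0.557% to 0.676%. Among the 1000 best-ranked peaks the ERE share was 11.5%, 10.2% and 12.3% with vehicle and 9.3%, 3.1% and 11.9% with fulvestrant. The difference in means was −3.23 percentage points (exact permutation p = 0.3), and −0.73 without fulvestrant replicate 2 (exact p = 0.6). The strongest peaks thus held many more EREs than the lists as a whole in both treatments. TGANTCA, the AP-1 site, lay in 4.4%, 3.3% and 5.0% of the 1000 best vehicle peaks and in 3.9%, 1.5% and 4.7% of the fulvestrant ones, below the 5.6% to 6.1% of the upstream windows. Over the 8 library measures, the Benjamini-Hochberg adjusted p was 0.533 or 0.6 with all libraries and 1 without fulvestrant replicate 2.

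**Figure D1:**
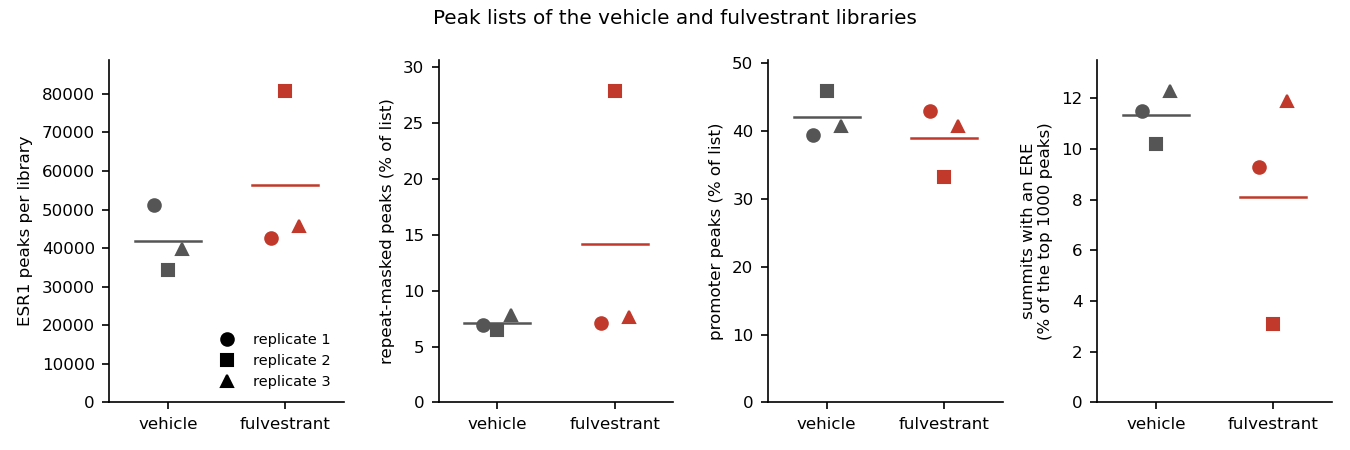
Library measures for the 3 vehicle and 3 fulvestrant libraries, 1 point per library, with each panel's unit on its axis. Fulvestrant replicate 2 lies apart in number of peaks (80754), repeat-masked share (27.9%) and ERE share of the 1000 best peaks (3.1%), and the other fulvestrant libraries lie near the vehicle ones.

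Treatment did not order the libraries by the positions of their peaks. The Jaccard index, the shared bases of a pair of lists over the bases in either, averaged 0.324 within treatments and 0.328 between them (exact permutation p = 0.7). It was 0.372 within and 0.388 between without fulvestrant replicate 2 (exact permutation p = 0.2). The 6 pairs of a vehicle with a fulvestrant library then lay between 0.355 and 0.433 and the 4 pairs of the same treatment between 0.334 and 0.434. Pairs with fulvestrant replicate 2 lay between 0.184 and 0.237, whichever treatment the partner had.

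Summits did not move by more than they did between replicates. In the 11188 regions with a peak in all 6 libraries, the median distance between the summits of a pair averaged 99.2 bp within treatments and 98.2 bp between them (exact permutation p = 0.6). In the 13232 regions common to the 5 libraries without fulvestrant replicate 2 these averages were 104 and 101 bp (exact permutation p = 0.6). At the best-ranked perfect-ERE regions the summits of the 6 libraries lay close together, spanning 41 bp near Gm33201, 16 bp near Tprg and 37 bp at Tacc1.

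Few regions had a peak in every library of one treatment and none of the other. Of 117384 regions with a peak in any of the 6 libraries, 328 (0.279%) had one in all 3 fulvestrant and no vehicle library, called added here, and 211 (0.18%) had one in all 3 vehicle and no fulvestrant library, called removed. Without fulvestrant replicate 2, which lowers the number of libraries that must carry the peak, 1117 of 69903 regions (1.6%) were added and 336 (0.481%) removed. These patterns have no replicate test. Of the 117384 regions, 59156 had a peak in 1 fulvestrant library only and 20072 in 1 vehicle library only, which keeps both shares small. Most of the 59156 had their peak in fulvestrant replicate 2, as the fall from 117384 to 69903 regions without it shows. Among regions with a peak in 3 of the 6 libraries, 3060 had 1 vehicle and 2 fulvestrant peaks. Another 2248 had 2 vehicle peaks and 1 fulvestrant peak. By nearest transcription start site, 229 of 35287 genes with a peak in any of the 6 libraries (0.649%) had a peak in all 3 fulvestrant and no vehicle library, and 49 (0.139%) the reverse. With fulvestrant replicate 2 left out these were 346 (1.35%) and 187 (0.729%) of 25669 genes.

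Added and removed regions were mostly weak peaks. The median of the mean list percentile was 53.1 for added and 62.3 for removed regions, compared with 19.1 for the 11188 common regions, and 3 added and 0 removed regions lay in the best 10% of the lists. An ERE was found in 7 of the 328 added regions (2.13%) and 2 of the 211 removed ones (0.948%), compared with 290 of the common regions (2.59%) and 1.25% of all 117384. Promoters made up 41.5% of the added, 11.4% of the removed and 67.1% of the common regions. When fulvestrant replicate 2 was left out, the added and the removed regions had nearly the same promoter share, 23.2% in each. Most of both kinds carried a peak in another treatment. In E2 replicate 2 or 3, 292 of the added (89.0%) and 193 of the removed (91.5%) had a peak, compared with 39.1% of all 117384 regions and 99.97% of the common ones. Most of the 117384 had a peak in only 1 of the 6 libraries, so the 39.1% is not a like baseline. Of the added regions 15, and of the removed regions 7, had no peak in any E2 or E2 plus fulvestrant library.

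Exons of immunoglobulin genes made up 3 of the 5 best-ranked added regions. These genes encode antibody chains and are normally transcribed in B cells and plasma cells. The first lay over an exon of Ighg2c, the constant region of an antibody heavy chain, at chr12:113288457-113289111, and ranked 468, 14 and 2671.5 in fulvestrant replicates 1 to 3, with 64, 146 and 34 fragments at its summit. A second exon peak of Ighg2c at chr12:113287427-113288327 had 52, 73 and 17 fragments, and an exon peak of Ighv1-62, a heavy chain variable segment annotated as a pseudogene, at chr12:115372072-115372538 had 31, 41 and 22. In all 3 regions fulvestrant replicate 2 had the most fragments and replicate 3 the fewest. Counting every peak in an immunoglobulin exon, fulvestrant replicates 1 to 3 had 4, 6 and 3, and each of the 9 other libraries had 0. Peaks elsewhere that were nearest to an immunoglobulin gene were not particular to fulvestrant. With exon peaks included, the fulvestrant libraries had 11, 39 and 3 peaks nearest to such a gene, E2 replicate 1 had 152, and the other 8 had 0 to 5. They included an exon of the light chain constant gene Igkc at chr6:70726457-70726891, with 19 and 26 fragments in fulvestrant replicates 1 and 2 and no peak in replicate 3. Immunoglobulin genes have close copies between which reads cannot always be assigned, so the exact gene is uncertain. The source of these exon peaks was not tested.

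The other best-ranked added regions were distal and had peaks with E2 plus fulvestrant as well. The region near Gm26645 at chr13:15420991-15421969, which held an AP-1 site, had 41, 35 and 46 summit fragments with fulvestrant, no vehicle peak, 37 and 28 in E2 replicates 2 and 3, and 50, 89 and 79 with E2 plus fulvestrant. The region near Gm34388 at chr13:97858633-97859555 had 33, 25 and 33 with fulvestrant, 46 and 45 with E2, and 49, 79 and 78 with E2 plus fulvestrant. Both ranked best with E2 plus fulvestrant. When fulvestrant replicate 2 was left out, a region in an intron of Gm49797 at chr17:3218031-3219300 (41 and 59 fragments) and one in an intron of Ptprg, nearest to the start of Gm3848, at chr14:12057712-12060106 (46 and 46 fragments) joined the 5 best, and both held an AP-1 site. An AP-1 site was found in 18 of the 328 added regions (5.49%), near the 5.63% of all regions. With fulvestrant replicate 2 left out it was found in 95 of the 1117 added regions (8.50%), beside 7.35% of all 69903. The top of the list thus did not stand for the whole.

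The best-ranked removed regions were weaker. The first, near Gm43093 at chr5:46572800-46573543, ranked 9211.5, 5719 and 6451.5 in the vehicle libraries with 24, 24 and 21 fragments and had no fulvestrant peak. The others lay near Gm26576, in an intron of Etfa, a subunit gene of the mitochondrial electron transfer flavoprotein, and in introns of Slc24a3 and Ube2e2, where Gm11759 and Gm22499 had the nearest start sites, with between 17 and 29 fragments in the vehicle libraries. All 5 had a peak in E2 replicates 2 and 3 and in the 3 E2 plus fulvestrant libraries. Among the regions removed when fulvestrant replicate 2 was left out, the promoter of Prmt2, an arginine methyltransferase, ranked first, with 52, 40 and 40 fragments with vehicle, but fulvestrant replicate 2 had a peak of 53 fragments there. The same held for Rin3, Irf2bp1 and Gm15323, where it had 19, 56 and 19 fragments, so these 4 peaks were not lost in every fulvestrant library.

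No region with a peak in all 6 libraries passed the rank test. These regions were ordered among themselves within each library, the order was turned into normal scores, on which 1 unit is 1 SD of the common regions, and the scores were tested with limma. The limma test called 0 of 11188 regions (0%) at a Benjamini-Hochberg adjusted p of at most 0.05, with 292 higher and 288 lower at an unadjusted p under 0.05 and a smallest adjusted p of 0.924. For the best peak of each gene limma called 0 of 10570 genes, with 307 higher and 267 lower at an unadjusted p under 0.05. With 5 libraries, fulvestrant replicate 2 left out, limma also called 0 of 13232 regions (296 higher and 380 lower at an unadjusted p under 0.05) and 0 of 11131 genes (261 higher and 322 lower). In this order every fulvestrant library placed a region better than any vehicle library in 5.33% of regions and worse in 5.13%, and below "better" and "worse" refer to this order. These shares were 10.1% and 10.4% without fulvestrant replicate 2. They are the background for the counts that follow. The split depended on the scale. By list percentile, which divides a rank by the length of the whole list and was added after the data were seen, every fulvestrant library was better in 9.19% of the 11188 regions and worse in 2.06%, and in 11.7% and 7.48% of the 13232 without fulvestrant replicate 2, whose list was the longest.

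Regions with a perfect ERE tended to stand lower in the fulvestrant lists. Of the 72 such regions common to the 6 libraries, 65 had a difference in score below 0, and their median difference was −0.67, compared with 0.01 over all 11188 regions. In 20 of the 72 (27.8%) every fulvestrant library ranked the region worse than any vehicle library, and in 1 every one ranked it better. By list percentile these numbers were 14 (19.4%) and 2, beside the 2.06% and 9.19% of all regions. The 218 regions with 1 mismatch had a median difference of −0.28. Regions with an AP-1 site and no ERE had −0.11, promoters with neither motif 0.08, and distal regions with neither −0.14.

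The displacement was smaller without fulvestrant replicate 2. With the other 5 libraries, the 102 common regions with a perfect ERE had a median difference of −0.32, with 79 below 0 and 36 (35.3%) worse in both fulvestrant libraries than in any vehicle library (29, or 28.4%, by list percentile), and the 297 with 1 mismatch had −0.08. The median list percentile of the 72 perfect-ERE regions was 1.95, 3.79 and 2.27 in vehicle replicates 1 to 3 and 4.46, 11.3 and 2.92 in fulvestrant replicates 1 to 3. Fulvestrant replicate 3 thus lay within the vehicle range, and perfect-ERE regions stayed near the top of all 6 lists. The difference was below 0 in every alternative run for this class, but no region of it passed the test alone, and the part of depth and repeats in it was not tested.

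**Figure D2:**
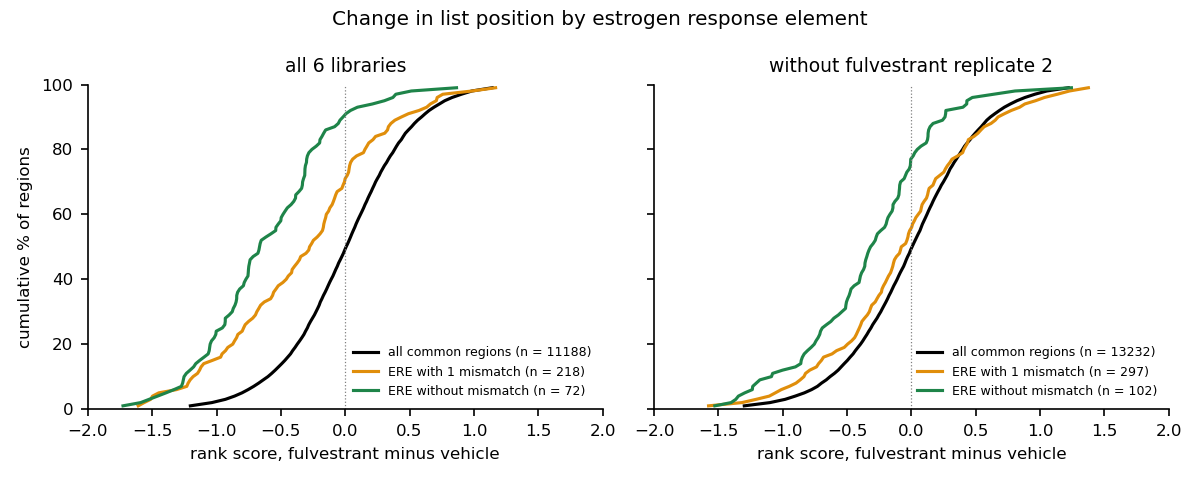
Cumulative percent of regions (vertical axis) by the difference in normal score of the rank, fulvestrant minus vehicle (horizontal axis), for all common regions and for those with an ERE, with all 6 libraries on the left and without fulvestrant replicate 2 on the right. The curve of perfect EREs lies to the left of that of all regions in both panels, with medians of −0.67 and −0.32.

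The 5 best-ranked perfect-ERE regions lay within the first 100 peaks of all 6 libraries. They were chosen by mean list percentile over these same libraries. A high place in each list therefore follows largely from the choice. The region near Gm33201 ranked 1, 2 and 2 with vehicle and 4, 4 and 4 with fulvestrant, with 286, 264 and 242 against 263, 252 and 269 fragments (difference in score −0.32 ± 0.35 SE, limma adjusted p = 0.966). It thus ranked worse in every fulvestrant library, by 2 or 3 places. The region near Tprg ranked 3, 3 and 3 with vehicle and 1, 12 and 5 with fulvestrant. The region of Tacc1, which encodes a centrosomal coiled-coil protein, ranked 2, 5 and 5 with vehicle and 3, 83 and 1 with fulvestrant. Those near Gm43782 and Cap1, an actin-binding protein gene, ranked between 6 and 21 with vehicle and between 7 and 73 with fulvestrant. With no E2 added, these 5 chosen regions had strong ESR1 peaks in both treatments, which says nothing of other EREs. The 2 worst ranks, 83 and 73, were those of fulvestrant replicate 2.

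Esr1 itself had its best peak at chr10:4590562-4592514, an intergenic position 20.8 kb from its nearest start site with no ERE at the summit. It ranked 167, 188 and 72 with vehicle and 1801, 6406.5 and 528 with fulvestrant, with 74, 61 and 73 against 49, 35 and 57 summit fragments. Every fulvestrant library lay below every vehicle library. The difference in score was −1.36 ± 0.44 SE with all libraries and −0.89 ± 0.39 SE without fulvestrant replicate 2, and neither passed the test (limma adjusted p = 0.924 and 0.938). With E2 replicates 2 and 3 the region ranked 85 and 108, and with E2 plus fulvestrant 162, 101 and 202.

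The study's positive control loci differed in what they showed. The Greb1 ERE region at chr12:16760253-16760831 ranked 4904.5, 5820 and 6819 with vehicle and 7462 and 9765.5 in fulvestrant replicates 1 and 3, and had no peak in replicate 2. Its summit fragments, 28, 22 and 19 with vehicle and 25 and 21 with fulvestrant, overlapped. With E2 replicates 2 and 3 they were 72 and 52, and with E2 plus fulvestrant 42, 51 and 59. Pgr, the progesterone receptor gene, had no ERE peak in these 6 libraries, and its best region had 17 fragments in vehicle replicate 1, 13 in fulvestrant replicate 3 and no peak in the other 4.

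Of the 5 regions that ranked better with fulvestrant and had the smallest p, 4 lay within 3 kb of a start site, and none passed the test. At Ipo4, a nuclear import receptor gene, the region chr14:55634847-55635944 ranked 26604.5, 19416 and 15531.5 with vehicle and 3081.5, 4276.5 and 2665 with fulvestrant (difference 1.71 ± 0.37 SE, limma adjusted p = 0.924). Its summit fragments were 23, 28 and 27 with vehicle and 56, 60 and 57 with fulvestrant. The groups were far apart. E2 lay between 46 and 77, and the E2 plus fulvestrant libraries had 35, 29 and 40. Prpf19, a splicing factor gene, had 32, 33 and 27 fragments with vehicle and 57, 60 and 47 with fulvestrant, and Ilf2, which encodes a subunit of an RNA-binding complex, had 30, 21 and 20 against 47, 43 and 31.

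Fkbp5, which encodes a cochaperone of steroid receptors, held a region that stood higher with fulvestrant both without and with E2. The intronic region chr17:28511293-28514506 ranked 29324.5, 26528.5 and 26992 with vehicle and 4764.5, 9349.5 and 5861 with fulvestrant (difference 1.62 ± 0.36 SE, limma adjusted p = 0.924). Its summit fragments were 16, 17 and 17 with vehicle and 39, 32 and 34 with fulvestrant. E2 replicates 2 and 3 had 23 and 24, and the E2 plus fulvestrant libraries 46, 60 and 52. The difference of E2 plus fulvestrant from E2, which shares no library with the first comparison, was 2.75 in score and also missed the threshold (limma adjusted p = 0.256). The fifth region, near Gm33474, ranked 26528.5 to 32891.5 with vehicle and 6780.5 to 10868 with fulvestrant. The difference of E2 plus fulvestrant from E2 was 0.79 in score there, −0.58 at Ipo4 and −0.29 at Prpf19. Ilf2 had no such value, because E2 plus fulvestrant replicate 1 had no peak there. The direction seen at Fkbp5 with E2 was thus not shared by all of these regions.

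Of the 5 that ranked worse, 3 lay more than 3 kb from a start site, and 2 of the 5 held an ERE. At Htra1, which encodes a secreted serine protease, the intronic region chr7:130975549-130978455 ranked 4352, 4596.5 and 1993.5 with vehicle and 16768, 25381 and 23907 with fulvestrant, with 47, 41 and 44 against 33, 24 and 25 fragments (difference −1.73 ± 0.37 SE, limma adjusted p = 0.924). E2 replicates 2 and 3 had 118 and 100 fragments there. All 5 also stood lower by list percentile, with no overlap. The region near Trim52, whose ERE is printed above, ranked 4013.5, 3857.5 and 5471.5 with vehicle and 23406.5, 37057 and 19279 with fulvestrant. That near Gm7214, with a perfect ERE, ranked 1416.5, 4562 and 3200.5 with vehicle and 12279, 22952.5 and 14635 with fulvestrant. The others were a region near Aurkaip1, a mitochondrial ribosomal protein gene, with 32, 34 and 28 against 25, 17 and 22 fragments, and one near Gm44402 with 78, 51 and 44 against 44, 30 and 38.

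**Figure D3:**
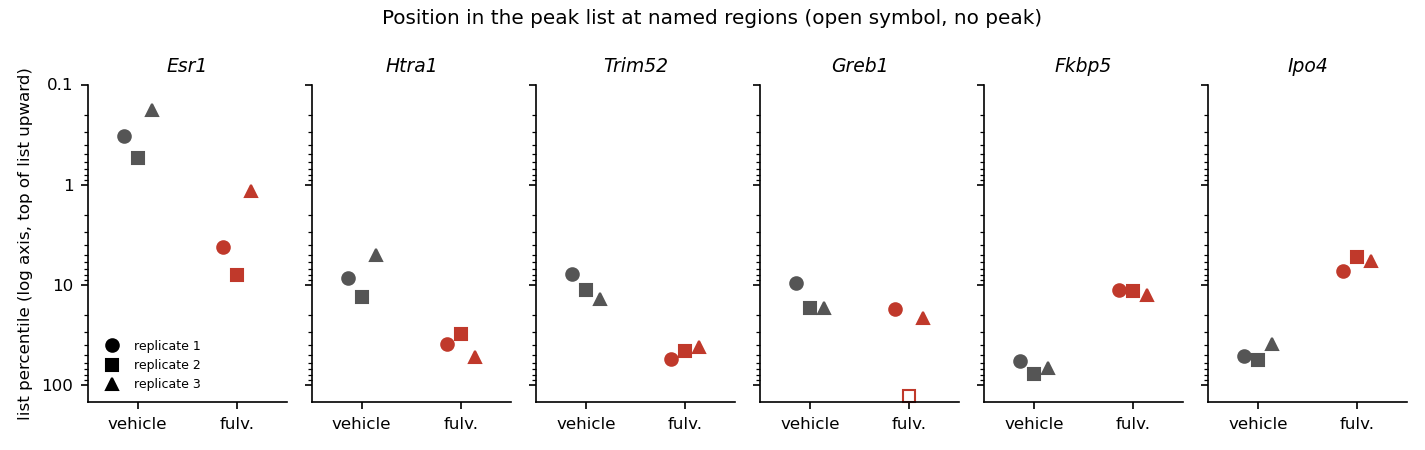
List percentile (log axis, top of the list upward) of the regions at Esr1, Htra1, Trim52, Greb1, Fkbp5 and Ipo4 in the 3 vehicle and 3 fulvestrant libraries, 1 symbol per library and an open symbol where a library had no peak. Vehicle lies above fulvestrant at the first 4 and below it at Fkbp5 and Ipo4, and no difference passed the limma test.

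A few regions were taller in fulvestrant replicates 1 and 3 by the number of fragments at the summit. With fulvestrant replicate 2 left out, 8 of 13232 regions (0.0605%) had at least 2-fold more fragments on the mean log2 scale with no overlap between groups, and 2 (0.0151%) at least 2-fold fewer. This measure was chosen after the ranks had been examined. Near Gm26682 on chromosome 18, the vehicle libraries had 24, 24 and 25 fragments and the fulvestrant libraries 102, 43 and 99. That region held an ERE with 1 mismatch, whose bases are not printed above. Near AC105304.2 at chr17:10061905-10063392 they had 30, 23 and 19 against 82, 27 and 75. Near Bmper, which encodes a secreted binding protein of bone morphogenetic proteins, at chr9:23123025-23124918 they had 20, 21 and 15 against 61, 21 and 58. With log2 fragments and without fulvestrant replicate 2 these 3 passed the test, with limma adjusted p of 0.0023, 0.0065 and 0.0089. With fulvestrant replicate 2, whose values lay lower, or by rank, none did.

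Values with E2 and with E2 plus fulvestrant are given beside the next 2 regions. The intron of Stat5a, a transcription factor gene of cytokine and prolactin signalling, at chr11:100870112-100871047 had 19, 15 and 15 fragments with vehicle and 41, 21 and 44 with fulvestrant. It had 69 and 52 with E2 and 42, 58 and 68 with E2 plus fulvestrant. The intron of Sybu at chr15:44698830-44699766 had 18, 14 and 15 with vehicle, and 38 and 44 in fulvestrant replicates 1 and 3 with no peak in replicate 2. It had 40 and 42 in E2 replicates 2 and 3, and 52, 84 and 90 with E2 plus fulvestrant. In the other 3, near Gm48076 and Gm47812 and in an intron of Lgr6, an R-spondin receptor gene, fulvestrant replicates 1 and 3 had between 55 and 73 fragments and the vehicle libraries between 19 and 43. An ERE was found in 4 of the 8 (50%), compared with 3.02% of the 13232 regions. The 8 were chosen on their values in the same vehicle libraries, so nothing is read from how E2 or E2 plus fulvestrant compares with vehicle at them. Fulvestrant replicate 2 exceeded the vehicle libraries at 3 of the 8 and had a peak at 7. The 2 shorter regions, at Kbtbd6 and Gm23810, were promoters without an ERE, and fulvestrant replicate 2 had 57 fragments at Kbtbd6, where the vehicle libraries had 26, 27 and 25.

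**Figure D4:**
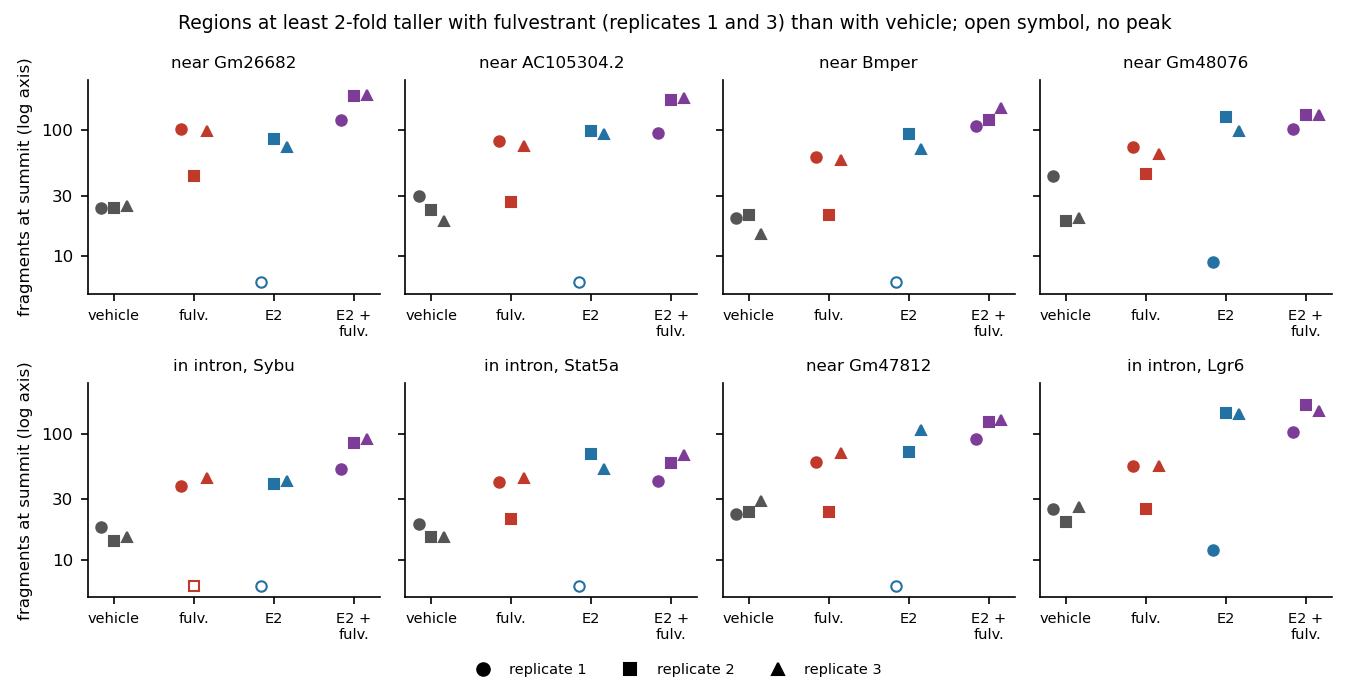
Fragments at the summit (log axis) of the 8 regions at least 2-fold taller in fulvestrant replicates 1 and 3 than with vehicle, for all 12 libraries, 1 symbol per library and an open symbol where a library had no peak. Fulvestrant replicate 2 lies at or near the vehicle values in most panels. The regions were chosen on the vehicle values and those of fulvestrant replicates 1 and 3.

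Genes of the estrogen pathway were next examined by the best-ranked peak nearest to each. No gene of any list passed the limma test. Over all 10570 genes with a peak in all 6 libraries, 5.45% ranked better in every fulvestrant library than in any vehicle library and 5.53% ranked worse, and 10.3% and 10.6% of 11131 genes did so without fulvestrant replicate 2. The order was again that of the common genes. By list percentile these shares were 9.19% and 2.08%, and 11.9% and 7.68% without fulvestrant replicate 2. Of 3 estrogen receptor genes Esr1 alone had a peak in all 6 libraries, and Esr2 and Gper1 had weak peaks in 1 library of each treatment. Of 16 classic estrogen targets 10 had peaks in all 6 libraries, with a median difference of −0.03. Among them Rara, a retinoic acid receptor gene, ranked better in every fulvestrant library (2957, 3779.5 and 7160 against 620, 1379 and 2129.5). Myc, the growth-promoting transcription factor gene, ranked worse in every one among the common genes (4225, 2648 and 3746.5 against 4996, 5724 and 6910 in the whole lists), as did Greb1. By list percentile neither did so. Myc stood at 8.24, 7.72 and 9.42 with vehicle and at 11.7, 7.09 and 15.1 with fulvestrant, and Greb1 at 9.57, 17.0 and 17.1 against 17.5, 16.8 and 21.3. The Greb1 peak of fulvestrant replicate 2 in this comparison was another one than the ERE region above, with 98 fragments and no ERE. Leaving out fulvestrant replicate 2, the 10 genes gave 2 in each direction on both scales.

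The study's own gene lists were selected on other samples of this study and are not independent evidence of a direction. Of its 58 genes higher with E2, 46 had peaks in all 6 libraries with a median difference of 0.16, and 4 ranked better in every fulvestrant library with 0 worse. The 4 were Nrp2, a semaphorin and VEGF coreceptor gene, Chst2, a sulfotransferase gene, Zfp618 and Cxxc5, both zinc finger genes. Chst2 ranked 28402.5, 19477.5 and 25660 with vehicle and 5289, 12159.5 and 10753.5 with fulvestrant (difference 1.12 ± 0.37 SE, limma adjusted p = 0.899). By list percentile 8 were better and 0 worse. Leaving out fulvestrant replicate 2, the list had 5 in each direction, or 8 better and 3 worse by list percentile, with a median difference of 0.01. Fxyd1, a regulator of the sodium pump, had peaks of 19, 25 and 19 fragments in the fulvestrant libraries and none with vehicle.

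Of the study's 34 genes higher with E2 plus fulvestrant, 27 had peaks in all 6 libraries with a median difference of 0.01. Fkbp5, Akap13, a protein kinase A anchor gene, Aff1, a transcription elongation factor gene, and Avpr1a, a vasopressin receptor gene, ranked better in every fulvestrant library. Selenop, the selenium carrier gene, ranked worse among the common genes (683.5, 977 and 822.5 against 1666, 14383 and 1149.5 in the whole lists), but its list percentiles, 1.33, 2.85 and 2.07 with vehicle and 3.92, 17.8 and 2.51 with fulvestrant, overlapped. Akap13 ranked 7000, 9799.5 and 28742.5 with vehicle and 4089.5, 2256.5 and 3208 with fulvestrant, and Aff1 ranked 6018, 8144.5 and 16589 against 2706, 2502 and 2558.5. The 4 of 27 that ranked better, and the 1 that ranked worse, stand beside the same backgrounds of 5.45% and 5.53%, and by list percentile 5 were better and 0 worse. Without fulvestrant replicate 2, 28 genes again gave 4 better and 1 worse, with a median difference of 0.09.

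The other lists were of cofactor, matrix, stress and marker genes. Of 16 ESR1 coregulators and cofactors 11 had peaks in all 6 libraries, and the acetyltransferase gene Crebbp ranked better in every fulvestrant library. The list gave 2 better and 1 worse, the corepressor gene Tle3, without fulvestrant replicate 2. Of 8 AP-1 genes 5 had peaks in all 6, and Fosl2 ranked better (1927, 1689.5 and 1079 against 558, 853 and 516). Fos ranked worse without fulvestrant replicate 2 (13944, 18255.5 and 12008.5 against 21141.5 and 27179). Of 30 matrix and TGF-beta genes, which build or remodel the extracellular matrix, 22 had peaks in all 6 libraries with a median difference of −0.12. Mmp2, a matrix metalloproteinase gene, ranked 154, 405 and 523 with vehicle and 86, 117 and 126 with fulvestrant, and the TGF-beta signal transducer gene Smad3 also ranked better, though its list percentiles overlapped. Without fulvestrant replicate 2, 24 matrix and TGF-beta genes gave 3 better and 2 worse. Col1a2, a collagen I chain gene and also one of the fibroblast markers, was the third better one, and the matricellular gene Ccn2 and Ltbp1 the worse ones. Ltbp1, a binding protein of latent TGF-beta, ranked 8911.5, 2575.5 and 9241.5 with vehicle and 28821, 8596.5 and 20971 with fulvestrant, with the groups overlapping only through fulvestrant replicate 2. Of 10 heat shock and hypoxia genes and 8 fibroblast marker genes with peaks in all 6 libraries, 0 had groups that did not overlap. Without fulvestrant replicate 2, 0 of the 10 and 1 of the 8, Col1a2, did not overlap. These counts are by the order of the common genes. By list percentile 1 of the 10 and 1 of the 8 stood better in every fulvestrant library, with or without fulvestrant replicate 2. The fibroblast markers had a median difference of −0.24, or 0.07 without fulvestrant replicate 2. Of 7 muscle cell markers 0 had a peak in all 6, and of 8 endothelial, immune and epithelial markers 4 did, of which only the macrophage gene Cd68 had one at its promoter in each. The median difference of these 4 was −0.54, and −0.49 without fulvestrant replicate 2, with 0 of 4 not overlapping.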

How the data were processed

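ESR1 ChIP-Seq libraries were prepared from fixed cells with an ERα antibody. Per the labels and the study's methods, the authors' pipeline used Trimmomatic 0.39 for trimming, Bowtie2 for alignment (genome build mm10), Picard 2.21.4 for duplicates and MACS2 2.2.71 for peak calling. Each deposited list gave for every peak a position, a summit, a score, the fold enrichment as a ratio over local background, and the −log10 of the p-value and q-value, all computed by the authors. Peaks were treated as called per library. Read totals were not in the lists, so depth was taken relative to the other libraries. Where the p-value allowed it, the number of fragments at the summit was recovered from the deposited fold and p. It was the whole number that best matched them under the Poisson model of the peak caller. The −log10 p that it implied differed from the deposited one by less than 0.001 (largest difference 0.000515). The score was not used. No value column was left unused for want of a sample (0 columns), and 1 input library was left unanalysed.

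Groups came from the treatment labels. Peaks of the 12 libraries were merged where they shared 1 bp, and genes were assigned by the nearest transcription start site. Library measures were compared by two-sided exact permutation tests, and normal scores of ranks by −log10 q with limma 3.58.1 in R 4.3.3 (Benjamini-Hochberg adjustment). Other steps used Python 3.11.15 with numpy 2.4.6, pandas 2.3.3 and scipy 1.17.1. The limma step was tested on simulated data. The motifs, searched on both strands within 100 bp of the summit, were GGTCANNNTGACC with at most 1 mismatch and TGANTCA. Regions were named as the 5 with the smallest p and no overlap in each direction, the 5 best added and removed ones, the 5 best with a perfect ERE, and the Greb1, Pgr and Esr1 regions. The regions at least 2-fold different in fragments and the immunoglobulin exons were named after their values were seen. All 204 genes of the lists were found in the annotation. The comparison, lists and members were chosen with earlier results of these data known. Alternatives covered replicates, peak thresholds, list length, repeats, motif and promoter windows, merging, overlap, presence rule, ranking column, weights, gene assignment and a replicate block, and list percentiles, combinations of settings without fulvestrant replicate 2 and the use of fragments were added after seeing the data.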

Additional observations from a re-analysis of the deposited data

Results flagged for a closer look

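Peaks over immunoglobulin exons were singled out because they appeared in fulvestrant libraries and in none of the 9 other libraries, the vehicle libraries included. The most fragments at the summit in a fulvestrant library were 146 at the first Ighg2c exon peak, 73 at the second, 41 at the Ighv1-62 exon and 26 at the Igkc exon, all in fulvestrant replicate 2, whose median peak had 14. Fulvestrant replicates 1 and 3 had such peaks as well, 4 and 3 in number, of which 3 and 1 had a −log10 q of at least 10. The sources of these fragments were not tested.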

How the results depend on the processing

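Of 282 recomputed values of 18 results, 224 kept their direction and, for counts, stayed within 1.5 times, 16 turned direction and 42 counts moved further. Some of the 224 could not have changed. A difference of 0 forced by the setting was counted as kept, as for peak number in lists of equal length. Others repeated the main value, as did the library differences with a replicate block. Of the 282, 80 were counts of the rank test with a main value of 0. Those that stayed at 0 were counted as kept, although a count of 0 has no direction. The difference in promoter share, fulvestrant minus vehicle, turned to 1.19 percentage points for peaks with a −log10 q of at least 10, to 2.15 in lists of equal length and to 1.15 in such lists without fulvestrant replicate 2, and leaving out 1 library gave −5.05 to −0.15. That in repeat-masked share turned to −0.0068 and −0.41 without fulvestrant replicate 2, in lists of equal length and among peaks of a −log10 q of at least 10, respectively. AP-1 share differences ranged from −1.53 to 0.067 with 1 library left out, and stayed at 0.067 without fulvestrant replicate 2 in equal lists and at a −log10 q threshold of 10. The Jaccard index within minus between treatments ranged from −0.029 to 0.026 with 1 library left out, above 0 without fulvestrant replicate 1 (0.026) or 3 (0.020), and was 0.022 at a −log10 q of at least 10. The summit distance between minus within treatments ranged from −3.67 to 1.5 bp, above 0 without fulvestrant replicate 1 (0.42) or 3 (0.5) and without vehicle replicate 1 (1.17) or 2 (1.5), and was 0.28 bp at a −log10 q of at least 10. The cause of these turns was not tested.

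The counts of added and removed features depended most on the settings, and fewer libraries to satisfy gives more of both by construction. Leaving out 1 library gave 458 to 1338 added regions, 336 to 1044 removed regions, 316 to 896 added genes and 104 to 187 removed genes. Each of fulvestrant replicates 1, 2 and 3 and vehicle replicates 1 and 3 moved the added regions by over 1.5 times (1338, 1117, 1244, 1193 and 504), and every library moved the removed ones (469, 336 and 551 without fulvestrant replicates 1 to 3, and 411, 1044 and 792 without vehicle replicates 1 to 3). Requiring a peak in at least 2 of 3 libraries gave 3043 added and 1825 removed regions. Without fulvestrant replicate 2, equal lists gave 896 added and 349 removed regions, lists without repeat-masked peaks 1083 and 323, and a −log10 q of at least 10 left 10 removed. With all libraries, removed regions numbered 125 at a −log10 q of at least 1.3, 3 at 10 and 42 at 50% reciprocal overlap. Added genes numbered 152 in equal lists, and 360 at a −log10 q of at least 10 without fulvestrant replicate 2. Removed genes numbered 28 and 2 at a −log10 q of at least 1.3 and 10, 103 in equal lists and 23 by gene body and 10 kb, and without fulvestrant replicate 2 they numbered 225 in equal lists, 181 without repeat-masked peaks and 15 at a −log10 q of at least 10.

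The rank test called 0 regions and 0 genes in each direction under every alternative except log2 summit fragments without fulvestrant replicate 2, which gave 3 higher regions, those near Gm26682, AC105304.2 and Bmper. The perfect-ERE median difference in score ranged from −0.79 to −0.28 over the alternatives run for it. The −0.28, without fulvestrant replicate 2, was taken over 103 regions, compared with the −0.32 over 102 regions given above. On the other scale, log2 summit fragments, the median was −0.49 with all libraries and −0.19 without fulvestrant replicate 2. With the replicate number as a replicate block limma called 0 regions and 0 genes, and the paired exact sign-flip test of the library measures cannot give a p below 0.25. The deviations of same-numbered libraries had correlations of 0.051, 0.0056 and 0.095, and those of the other 6 pairs lay between −0.083 and 0.041. None of the same-numbered ones exceeded 0.1, so the numbers were not treated as pairs, and whether they mark a shared culture or animal is unknown. Peak lists hold no read counts, so weak peaks cannot be compared below the calling threshold, and a missing peak is not an absence of binding.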

Other observations

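The order of the regions by their response to fulvestrant without E2 was set beside their response with E2, taken from E2 plus fulvestrant against E2 replicates 2 and 3, which shares no library with it. Over 10337 common regions the differences in score had a Spearman's rho of 0.034, and 0.019 over 12029 regions without fulvestrant replicate 2, as a description across regions that share libraries. Of the 100 regions that gained most in score with fulvestrant alone, 52 were above 0 with E2 as well, and of the 100 that lost most 21 were, compared with 42.8% of all. These numbers were 53 and 32, compared with 42.5%, without fulvestrant replicate 2.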
